A study of Mus musculus with 4 samples.

Results

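The peaks described are those of chromosome 15 in a map of PRDM6 binding in mouse smooth muscle cells (SMCs). They were the rows of the peak list that lay on chromosome 15, each joined to its annotated gene by start and end, and they numbered 863 of 13977. The chromosome was chosen by its measured density, the most peaks per megabase of the 19 autosomes, so that density is given as a description and was not tested. The cells were outflow tract SMCs, which per the study came from mouse embryos, and all 4 samples came from cells that carried a lentivirus expressing FLAG-tagged PRDM6. The PRDM6 ChIP group held 2 samples, precipitated with an antibody against the tag, and the Input group held 2 samples of chromatin without precipitation. Chromatin of both groups was fixed with formaldehyde, cut with micrococcal nuclease and then sonicated. The assay therefore recorded the tagged, overexpressed protein. Whether both precipitations came from one culture is not clear from the study, which words it in both ways, so their agreement may be technical only. The labelled cell type could not be checked against marker genes, since no expression was measured.

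PRDM6 belongs to a family of proteins with a PR domain, related to the catalytic domain of histone methyltransferases, and with zinc fingers that can contact DNA. It is known for its selective expression in SMCs, where it has been linked to the control of contractile genes. A ChIP-seq peak is a stretch of genome that was recovered more often in the precipitate than its input, and its summit is the position of highest recovery. Chromosome 15 carries several genes of SMC biology, among them Mrtfa, a coactivator of serum response factor, Ptger4, a prostaglandin E receptor of the ductus arteriosus, and Has2, which makes hyaluronan.

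The summits of 6 of the strongest peaks are given as examples of sequence. Each line gives 121 bases of the plus strand around a summit (GRCm38, the sequence of mm10), and capitals mark a match to an AP-1 or a TEAD word. Fam83f, Pvt1 and Cdh18 were chosen as peaks among the 4 highest in the matched p-value, Cbx5 and Zfr as strong peaks with an AP-1 match, and Tg as a strong peak with a TEAD match.
Fam83f summit, chr15:80673873-80673993: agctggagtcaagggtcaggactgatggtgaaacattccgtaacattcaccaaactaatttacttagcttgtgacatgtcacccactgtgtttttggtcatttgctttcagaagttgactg
Pvt1 summit, chr15:62287338-62287458: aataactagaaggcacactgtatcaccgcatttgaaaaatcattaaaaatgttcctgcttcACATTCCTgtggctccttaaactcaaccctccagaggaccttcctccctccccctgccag
Cdh18 summit, chr15:23452134-23452254: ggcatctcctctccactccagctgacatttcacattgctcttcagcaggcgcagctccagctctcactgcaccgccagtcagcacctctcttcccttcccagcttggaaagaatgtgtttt
Cbx5 summit, chr15:103221547-103221667: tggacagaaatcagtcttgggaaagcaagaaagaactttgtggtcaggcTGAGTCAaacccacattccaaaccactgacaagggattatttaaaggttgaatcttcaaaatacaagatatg
Tg summit, chr15:66732726-66732846: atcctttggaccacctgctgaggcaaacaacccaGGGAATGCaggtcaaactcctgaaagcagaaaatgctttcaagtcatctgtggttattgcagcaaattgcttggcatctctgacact
Zfr summit, chr15:12111425-12111545: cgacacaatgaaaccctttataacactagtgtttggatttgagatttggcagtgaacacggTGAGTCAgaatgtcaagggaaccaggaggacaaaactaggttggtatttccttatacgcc
The Fam83f and Cdh18 windows held neither word, so the highest peaks did not all carry one. Within 100 bp of the summit, 182 of all 863 peaks (21.1%) and 4 of the 10 strongest held an AP-1 or a TEAD word. The 6 windows, some picked for a match, therefore do not stand for the list. The Pvt1 window lay in intron 5 of 9 of Pvt1, the Cdh18 window in intron 10 of 11 of Cdh18 and the Cbx5 window in intron 1 of 4 of Cbx5. The Fam83f window was in the annotated promoter, 1551 bp downstream of the nearest transcription start site (TSS) by the start of its peak, and the Zfr window lay between genes. The Tg window was inside the gene, and its peak was annotated as promoter because it ended 2839 bp upstream of a transcript that starts within Tg. None of these 6 windows overlapped an exon of the gene models used.

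Chromosome 15 held 8.29 peaks per Mb, and the other 18 autosomes held between 3.77 on chromosome 4 and 7.31 on chromosome 10. Chromosome 1 was next with 7.22 and chromosome 13 followed with 7.02 peaks per Mb. The density was 1.52 times the median of the other autosomes. Without runs of unknown sequence it was 8.57 per Mb, and after peaks less than 5 kb apart were merged into 643 sites it was 6.18 sites per Mb, again the highest of the 19. Merged sites, and the spacing, window counts and peaks per gene given below, rest on the peaks that chose the chromosome. Their ranks are therefore no separate evidence of density. Chromosome 15 was not rich in genes. It had 7.8 protein-coding genes per known Mb against a median of 8.16, and its GC content of 42.0% was close to the median of 41.9%. Per protein-coding gene it held 1.099 peaks and ranked behind chromosome 1 with 1.17. Across the 19 autosomes, which share libraries and differ in base composition, peak density fell with gene density as a description only (Pearson r = -0.37, Spearman correlation = -0.41, n = 19). With 1 chromosome against 18, a comparison by rank could not give a p below 0.0526, and none was made.

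**Figure D1:**
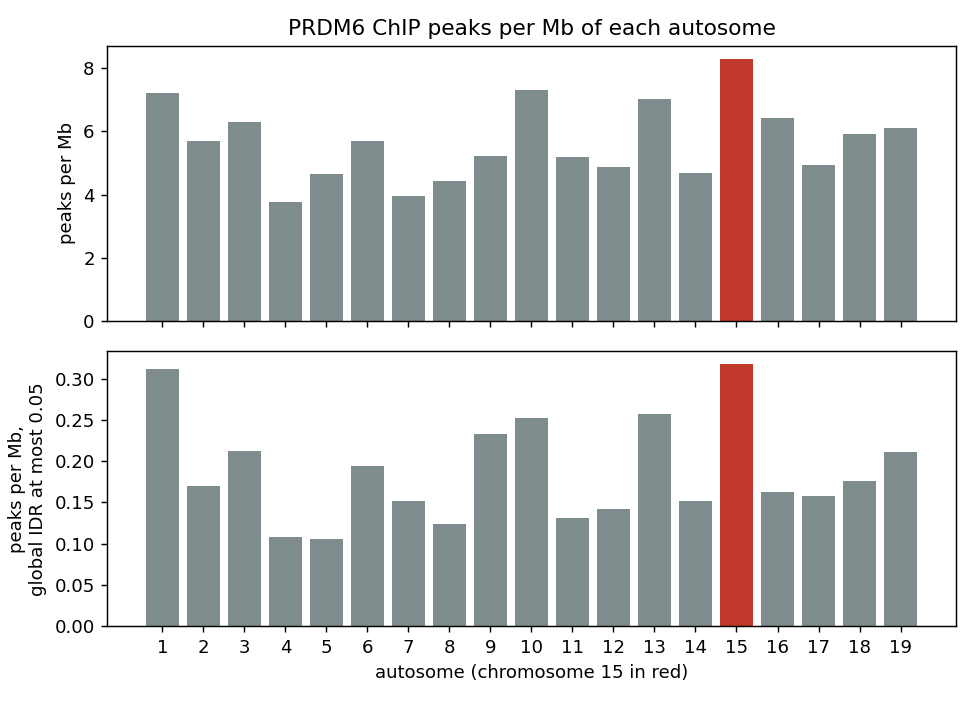
Peaks per Mb of full length for each autosome, for all peaks (upper panel) and for peaks with a global irreproducible discovery rate (IDR) of at most 0.05 (lower panel), with chromosome 15 in red. Chromosome 15 stands at 8.29 peaks per Mb, above 7.31 on chromosome 10, and at 0.317 peaks of low IDR per Mb, just above 0.312 on chromosome 1.

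The global IDR estimates the share of peaks of at least this rank that would not recur between the replicates. On chromosome 15, a global IDR of at most 0.05 was reached by 33 of 863 peaks (3.82%, with a 95% Wilson interval of 2.74 to 5.32), against 3.34% of the peaks of all 19 autosomes, and 10 were at or under 0.01. The share had rank 3 of the 19 autosomes, which otherwise ran from 2.27% on chromosome 5 to 4.46% on chromosome 9. The share with an IDR over 0.5 was 58.2%, against 58.3% on the 18 others. The strength of the peaks was ordinary. Their median matched −log10 p, the smaller value of both replicates, was 5.59 (quartiles 4.39 and 6.98), and the medians of the other autosomes lay between 5.42 and 5.67. The median was 6.89 in the first-listed and 6.61 in the second-listed replicate, and the list does not say which sample each replicate was. Across the 863 peaks the values of both replicates were related with a Spearman correlation of 0.255, and the median of the other autosomes was also 0.255. The ranks of most peaks thus agreed poorly between the replicates, as elsewhere in the list. The peaks were wide, with a median of 643 bp, second to 654.5 bp on chromosome 1.

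Peaks were far from even along the chromosome. The 21 windows of 5 Mb held between 4 and 91 peaks with a median of 35, and the 482 windows of the other autosomes had a median of 25. The windows that started at 40, 55 and 60 Mb held 91, 82 and 88 peaks, and 4 of the 482 other windows reached 80. A stretch from 50 to 65 Mb, 14.9% of the known length, held 243 peaks (28.2%), or 16.2 per Mb. The 20 fullest windows of 1 Mb held 410 of the 863 peaks (47.5%). Windows of 1 Mb with at least 20 peaks numbered 8 of 101 with known sequence (7.92%), against 78 of 2312 (3.37%) on the other autosomes. The highest 1 Mb window of chromosome 15 held 31 peaks, and the highest elsewhere held 41. Neighbouring summits were a median of 31.0 kb apart, the shortest of the 19 autosomes, which otherwise ran from 34.3 to 57.2 kb.

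Most peaks lay in the first part of chromosome 15 and most genes in the last, by a boundary at 70 Mb that was chosen after the window counts were seen. Before it lay 671 peaks (77.8%) and 225 protein-coding genes (28.7%), and after it 192 peaks and 560 genes. The density was 10.0 peaks per known Mb before the boundary and 5.67 after it, while genes ran from 3.37 to 16.5 per known Mb. Of the genes before 70 Mb, 120 (53.3%) had an assigned peak, and of those after it 89 (15.9%). The genes of the first stretch were longer, with a median of 43.2 kb against 13.4 kb, and its GC content was lower, at 39.9% against 45.9%. The median −log10 p was 5.59 before and 5.61 after the boundary. Peaks with an IDR of at most 0.05 numbered 23 before and 10 after, or 0.344 and 0.295 per known Mb. Over the 19 windows of 5 Mb that were nearly all known sequence, the number of peaks and of gene starts showed a Pearson r of -0.04, given as a description, so the division did not hold window by window. Window 20, for example, held 56 peaks and 85 gene starts.

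**Figure D2:**
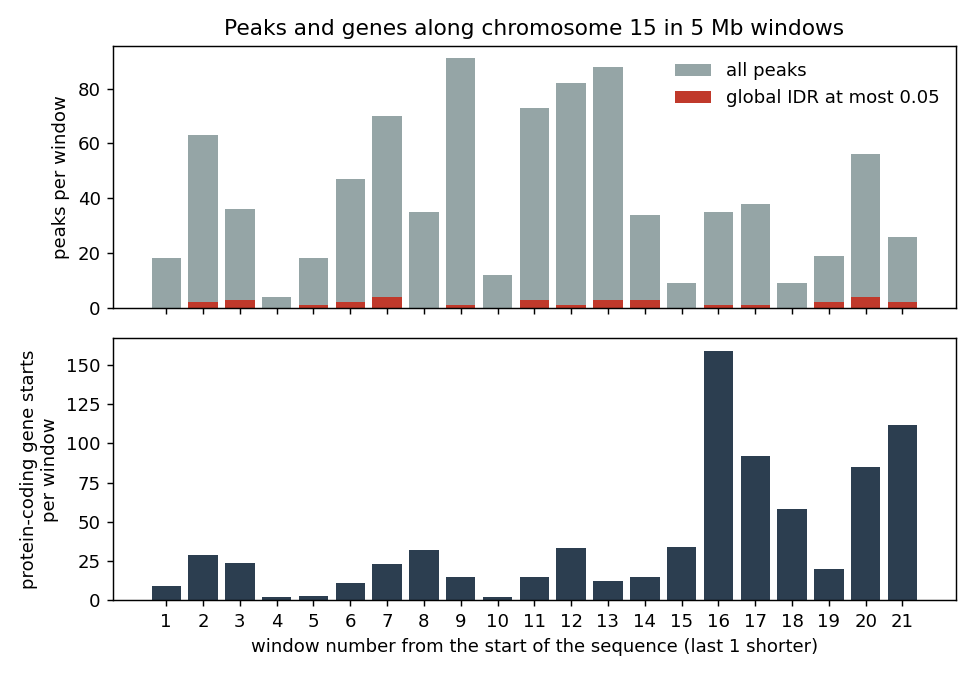
Number of peaks (upper panel, with those at or under a global IDR of 0.05 in red) and of protein-coding gene starts (lower panel) in each of the 21 windows of 5 Mb along chromosome 15, numbered from the start of the sequence. The fullest windows for peaks, with 91, 82 and 88, lie before window 14, and the fullest for genes, with 159 and 112, lie after it.

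The fullest window of 1 Mb began at 59 Mb with 31 peaks. It held 9 peaks assigned to Nsmce2, a SUMO ligase, 8 to Trib1, a pseudokinase that guides protein degradation, and 4 to Mtss1, which binds actin and membranes, and the rest were assigned to 4933412E24Rik, the RNA gene Gm19510 and Zfp572. The window from 61 Mb held 29 peaks at and upstream of Myc, the growth-promoting transcription factor. Of these, 13 were assigned to A1bg, 11 to the RNA gene D030024E09Rik and 5 to Myc itself. The A1bg assignments were distant ones, the nearest lying 215442 bp from the start of that gene. The window from 32 Mb held 26 peaks, with 8 at Sema5a, a guidance protein, 7 at Sdc2, a heparan sulfate proteoglycan of the cell surface, and 8 at Gm41289.

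The longest stretch without a summit ran for 6.39 Mb, chr15:12432831-18820579. Among the longest stretches of each autosome it came after 10.9 Mb on chromosome 7 and 7.56 Mb on chromosome 14. Its 4 protein-coding genes included Cdh6 and Cdh9, which encode cadherins, and Drosha, the nuclease that opens microRNA processing. The second ran for 3.23 Mb, chr15:85633248-88867586, and held 17 protein-coding genes with Ppara, a lipid-sensing receptor, Celsr1, a planar polarity cadherin, and Brd1 among them. The third ran for 2.94 Mb, chr15:44666599-47607056, and held Sybu and Kcnv1. None of these 3 stretches held unknown sequence. Their GC content was 37.5%, 47.4% and 37.1%, so they were not alike in base composition.

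The highest peak lay at chr15:80673398-80674558 in the promoter of Fam83f. Its −log10 p was 26.0 in the first-listed and 22.1 in the second-listed replicate, with a height of 35 and 29 fragments at the summit. The next lay in Pvt1, a long noncoding RNA gene beside Myc, with 26.3 and 22.0 and the same heights of 35 and 29. A peak 5960 bp from the small RNA gene Snora34 had 18.9 and 24.3, and a peak in Cdh18, a neuronal cadherin, had 17.9 and 18.8. These 4 reached the highest score the list can give, 1000. The other peaks with an IDR of at most 0.01 were assigned to Ctnnd2, a delta-catenin, with 17.9 and 16.9, to Lima1, which crosslinks actin filaments, with 16.9 and 18.3, to Egflam, a matrix protein, with 20.3 and 14.8, and to Cbx5, which encodes the heterochromatin protein HP1 alpha, with 15.01 and 20.9. The last 2 were a peak over Ext1, a heparan sulfate polymerase, with 15.9 and 16.7, and one in the promoter of the RNA gene Gm19276, with 17.9 and 15.5. A peak at the small RNA gene Snord123, with 16.7 and 15.6, was also among the 10 highest by matched p-value. No replicate was the higher one throughout, since the first-listed value was above the second in 5 of these 10 peaks of lowest IDR. Of all 863 peaks, 353 had the lowest score in the list, 48, and their median matched −log10 p was 4.32.

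The 863 peaks were assigned to 258 genes, of which 117 had 1 peak, 61 had at least 5 and 22 had at least 10. Those 22 genes took 279 peaks (32.3%). Peaks per assigned gene were 3.34, the highest of the autosomes, whose median was 2.69. Asap1, which acts on the small GTPase Arf and on focal adhesions, had the most, with 20 peaks over 467.8 kb and matched −log10 p from 3.35 to 13.2. Ext1 followed with 19 peaks, 12 of them intronic, and values from 3.04 to 15.9. Pvt1 and Trps1, a GATA-type repressor, had 15 each, and 9 of the Pvt1 and 12 of the Trps1 peaks lay over 100 kb from the TSS. Rspo2, a secreted activator of Wnt signalling, had 14 peaks, 10 of them intronic, but none above 7.76. Dab2, an endocytic adaptor, had 13, as did Basp1, a membrane protein of nerve growth cones, A1bg and the RNA gene Gm20740. Over 100 kb from the TSS lay 3 of the Dab2, 9 of the Basp1, 10 of the Gm20740 and all 13 of the A1bg peaks. Oxr1, which protects cells against oxidative stress, had 12, all intronic, with values from 4.08 to 13.97 and 1 with an IDR of at most 0.05. Many of these sets thus came with 1 peak at an IDR of at most 0.05 or none.

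**Figure D3:**
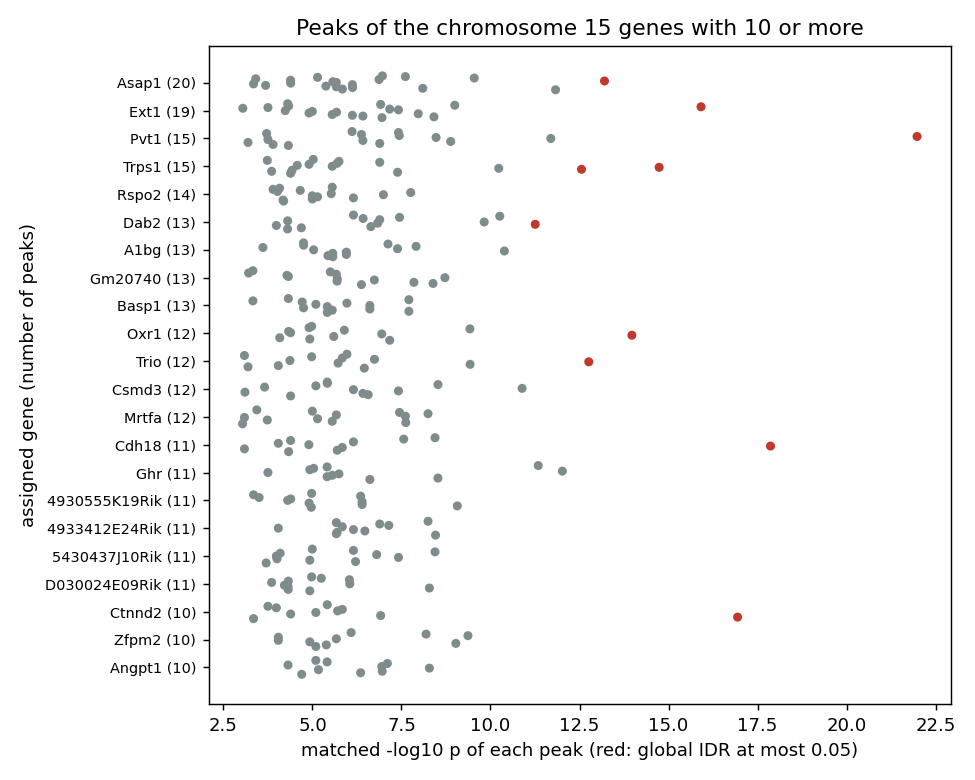
Matched −log10 p of every peak (points) of the 22 chromosome 15 genes with at least 10 assigned peaks, with the number of peaks in brackets and red for a global IDR of at most 0.05. Most points lie under 10, and Trps1 alone among these genes has 2 red points.

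Number of peaks went with length of gene. The 48 protein-coding genes with at least 5 peaks had a median length of 151.9 kb, the 161 with 1 to 4 peaks 38.0 kb and the 576 without a peak 14.0 kb. Assignment by nearest TSS could also divide the peaks of a gene between names. Zfpm2, a cofactor of GATA factors in heart development, had 10 assigned peaks, while 18 summits lay inside its 449.6 kb, the others being assigned to the distant pseudogene 4930555K19Rik. Has2 had 8 assigned peaks and only 1 summit inside its 28.9 kb. Its strongest peak lay 149553 bp upstream of the TSS, with a −log10 p of 18.4 in the first-listed and 13.05 in the second-listed replicate, and the peak at its promoter had 7.95 and 9.67.

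Among all 785 protein-coding genes of chromosome 15, 209 (26.6%) had an assigned peak and 24 (3.06%) had one with an IDR of at most 0.05. On the 18 other autosomes the share with a peak was 20.5%, with a range of 10.0% (chromosome 7) to 35.1% (chromosome 1) in which chromosome 15 ranked seventh. The median number of peaks over all 785 genes was 0. Gene lists drawn up for SMC biology held 114 genes of the chromosome, of which 59 (51.8%) had a peak. The lists were drawn up with results of these data known and favour long genes, so their shares are given as counts with no test.

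In the list of ligands and receptors, which also held 2 adenylyl cyclases and 2 calcium channel subunits, 12 of 17 genes had a peak, with a median of 1 and none at an IDR of 0.05. Ghr, the growth hormone receptor, had 11 peaks and Angpt1, a ligand of the Tie2 receptor on endothelium, had 10. Ptger4 had 4, with the highest at 110723 bp upstream of the TSS, where the −log10 p was 10.7 and 8.72, and one inside the gene with 4.32 and 3.09, near the calling limit. The latter lay 81 bp upstream of an annotated transcript that starts within the gene. Pdgfb, a mitogen for SMCs, Npr3, a natriuretic peptide receptor, and the adenylyl cyclase gene Adcy8 had 1 each. Acvr1b, Acvrl1, Csf2rb, Adcy6 and Cacna1i had none. Of 7 Wnt pathway genes, Rspo2 and Prickle1 had peaks, and Wnt1, Wnt10b, Wnt7b, Fzd6 and Celsr1 had none. Prickle1, a planar polarity protein, had 5 peaks, 2 of them with an IDR of at most 0.05. These 2 lay 37588 and 147815 bp upstream, with −log10 p of 13.1 and 12.4 and of 13.9 and 17.8.

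Of the 26 adhesion and cytoskeleton genes, 14 had a peak, with a median of 1, and Asap1, Trio and Dab2 had one with an IDR of at most 0.05. Trio, a guanine nucleotide exchange factor, had 12 peaks, and the strongest lay in its first intron with −log10 p of 14.95 and 12.8. The strongest peak of Dab2 lay in its first intron with 22.8 and 11.3, so the replicates differed there. Rai14, an actin-binding protein with ankyrin repeats, had 6, and Myh9, a nonmuscle myosin heavy chain, and Myo10 had 5 each. The keratins Krt8 and Krt18, the plakin Plec and the integrin gene Itgb7 had none. Among the 16 matrix genes, 11 had a peak with a median of 1. Col14a1, a fibril-associated collagen, and Has2 had 8 each, Sdc2 and Tnfrsf11b, the decoy receptor osteoprotegerin, had 7, and Ccn4, a secreted matricellular protein of Wnt signalling, had 6. The Ccn4 peak over its TSS had −log10 p of 14.3 and 19.9. Col2a1, the cartilage collagen, had no peak.

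Mrtfa had 12 peaks, all with a summit inside its 178.5 kb, and none reached an IDR of 0.05. Their matched −log10 p ran from 3.04 to 8.25, and the highest, 17251 bp from the nearest annotated TSS, had 9.49 and 8.25 in the replicates. Ep300, an acetyltransferase that works with many activators, had 1 peak. Of 32 transcription and chromatin genes 16 had a peak, with a median of 0.5, and Pvt1, Trps1 and Cbx5 had one at an IDR of at most 0.05. Myc had 5 peaks, 4 of them in its promoter, with −log10 p from 5.56 to 9.57 in the first-listed and from 5.84 to 10.9 in the second-listed replicate. Rbfox2, a splicing regulator of muscle, had 7 peaks, Zfat, a zinc finger protein, had 6, and Nipbl, the cohesin loader, had 5. Nr4a1, Atf4, Srebf2, Vdr and Sox10 were among the 16 without one. None of the 9 Hoxc genes had a peak, and nothing particular to that cluster is read from so small a count. Of 6 genes of the cadherin list, Cdh18, Ctnnd2 and Cdh10 had 11, 10 and 4 peaks, and Cdh6, Cdh9 and Cdh12 had none. Of the Cdh18 peaks, 9 lay over 100 kb from the TSS, and 9 had a summit inside that gene of 925.4 kb. For the ductus arteriosus, Ptger4 and Fbln1, an elastic fibre protein, both had peaks, and the 1 peak of Fbln1 had 6.89 and 6.39.

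By gene region, 192 peaks (22.2%) came within 3 kb of a TSS, 31 (3.59%) otherwise touched an exon, 369 (42.8%, 39.5 to 46.1) lay in introns and 271 (31.4%, 28.4 to 34.6) between genes. The intronic share was the highest of the autosomes, which otherwise ran from 29.4% to 39.8%. By the summit alone, 45.3% of summits lay in introns where introns made up 37.3% of known bases, a ratio of 1.22 against 0.886 to 1.15 on the other autosomes. Promoter summits were 21.3% on 10.4% of bases, a ratio of 2.04 that ranked seventh. Intergenic summits were 32.0% on 50.02% of bases, and this ratio of 0.639 was the lowest of the 19. Peaks of the 4 classes were alike in strength, with median −log10 p of 5.42 at promoters, 5.84 at exons, 5.56 in introns and 5.69 between genes. By the authors' annotation 196 peaks (22.7%) lay over 100 kb from a TSS, and 57 overlapped one.

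The p-values also held the background against which each peak was called. MACS2 tests the number of fragments at a summit against the highest of several background means. These are a mean over the whole genome and local means of the input at the position, over 1 kb and over 10 kb. Each deposited p-value could be read back as a whole number of fragments and one of these means. This placed 99.98% of the values of the first-listed and 99.97% of those of the second-listed replicate. Of the values off the genome-wide mean, 99.9% were placed, where steps set wrong by a few percent placed 24.3% at most. The genome-wide mean was 2.61 fragments in the first-listed and 2.39 in the second-listed replicate.

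Peaks of chromosome 15 mostly sat on a raised background. In the first-listed replicate 186 of 863 (21.6%, 18.9 to 24.4) were called on the genome-wide mean, against 60.5% on the 18 other autosomes. In the second-listed replicate 230 of 863 (26.7%, 23.8 to 29.7) were, against 65.8%. The other autosomes ran from 45.2% and 47.95% on chromosome 1 to 74.7% and 82.0% on chromosome 4, so chromosome 15 lay below all 18 in both replicates. Peaks called on the mean over 10 kb made up 24.2% and 21.1% of chromosome 15, and at most 8.14% and 8.78% of any other autosome. The median background was 1.097 and 1.101 times the genome-wide mean, and that of the other autosomes was between 1.00 and 1.02. In both replicates at once, 512 peaks (59.3%) were off the genome-wide mean, against 14.5% elsewhere.

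**Figure D4:**
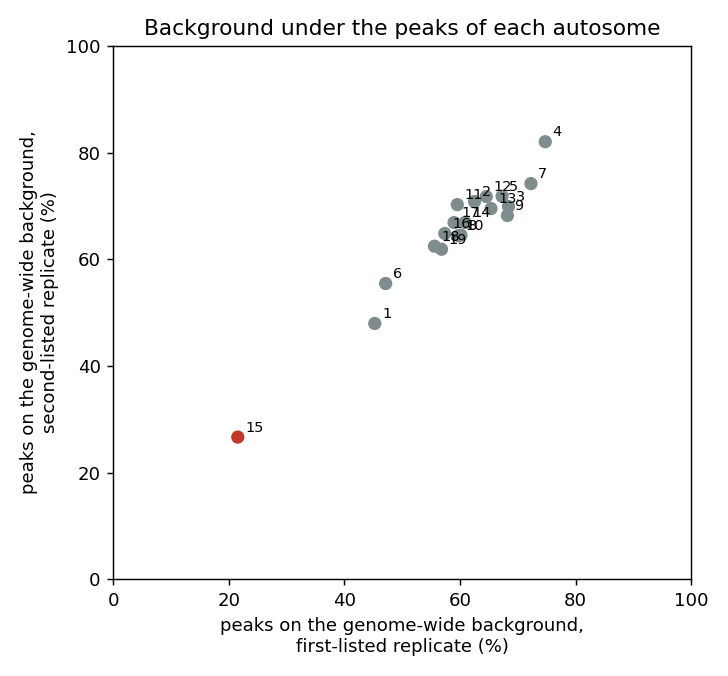
Share of the peaks of each autosome that were called on the genome-wide background, in the first-listed (x axis) and second-listed replicate (y axis), in percent. Chromosome 15 (red) stands at 21.6% and 26.7%, apart from the other autosomes, of which chromosome 1 is nearest at 45.2% and 47.95%.

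The low share was found along most of the chromosome. In the 18 windows of 5 Mb with at least 10 peaks it had a median of 21.7% and 28.2%, and 402 such windows of the other autosomes had a median of 62.7% and 67.3%. All 18 windows of chromosome 15 lay below the median of the others in the first-listed replicate, and 17 did in the second. The 18 windows ran from 5.26% to 61.1% and from 11.1% to 75%. Window 5, from 20 Mb, with 18 peaks at 61.1% and 50%, and window 10, from 45 Mb, with 12 peaks at 58.3% and 75%, were near the level of the others. By stretch, the share was 22.1% and 25.5% before 70 Mb and 19.8% and 30.7% after it, although genes and peaks were divided so unevenly. In alternatives chosen after seeing the data, the share was 24.2% and 27.3% among the 33 peaks with an IDR of at most 0.05, against 71.5% and 76.8% elsewhere. With 1 peak for each of the 643 merged sites it was 22.4% and 26.9%, against 62.5% and 67.2%.

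The mean height at the summit was 16.1 and 14.9 fragments on chromosome 15, the highest of the autosomes in both replicates, which otherwise ran from 14.5 to 15.9 and from 13.7 to 14.7. The median ratio of height to background was 4.97 and 5.05, at or near the low end of the other autosomes, from 4.97 to 5.36 and from 5.03 to 5.45. Across the 19 autosomes, density fell as the share on the genome-wide mean rose (Pearson r = -0.70 and -0.73, Spearman correlation = -0.58 and -0.68, n = 19), and without chromosome 15 the values were r = -0.54 and -0.62 (n = 18). Without chromosomes 15 and 1 they were r = -0.43 and -0.51 (n = 17). These are descriptions over chromosomes that share the same libraries. The part of the raised background in the peak density of chromosome 15 was not tested. The input libraries themselves were not used here, so a background below the genome-wide mean could not be seen.

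AP-1, the Jun and Fos family of activators, and TEAD, the DNA-binding partner of the YAP coactivator, have known words that were searched on both strands within 100 bp of each summit. The AP-1 words were TGACTCA and TGAGTCA, and the TEAD words were AGGAATGC, AGGAATGT, GGGAATGC and GGGAATGT. The other searches were for TTTCAT or TTTCCT and for the CArG box of serum response factor. No word of one motif contains a word of another. An AP-1 word lay at 121 of 863 summits (14.0%, 11.9 to 16.5) and in the flanks, centred 1000 bp away, of 34 (3.94%). It was 3.56 times as frequent at the summit, with 117 peaks that held it only there and 30 that held it only in the flanks (exact two-sided McNemar test over peaks, Benjamini-Hochberg over 4 motifs, adjusted p = 9.8e-13). TEAD words were 2.34 times as frequent, with 68 summits (7.88%) against flanks of 29 peaks (3.36%; same exact test, adjusted p = 0.00013). TTTCAT or TTTCCT lay at 43.7% of summits and 37.9% of flanks (exact test, adjusted p = 0.0189), but with flanks 3000 bp away the ratio was 1.01 (adjusted p = 0.922). CArG boxes were at 7 summits and 11 flanks (exact test, adjusted p = 0.481). These tests counted every peak as separate, although 24.4% of neighbouring summits lay under 5 kb apart. No test over merged sites was made, so the p-values may be too small. All the motifs but the CArG box had already been reported by the study as overrepresented sequences of this peak set. Peaks of chromosome 15 belong to that set. The p-values of those motifs, here and in the alternatives below, are therefore no independent evidence. In all 500753 windows of 201 bp laid end to end over the known sequence of chromosome 15, 3.15% held an AP-1 word, 3.17% a TEAD word, 39.5% TTTCAT or TTTCCT and 1.15% a CArG box.

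**Figure D5:**
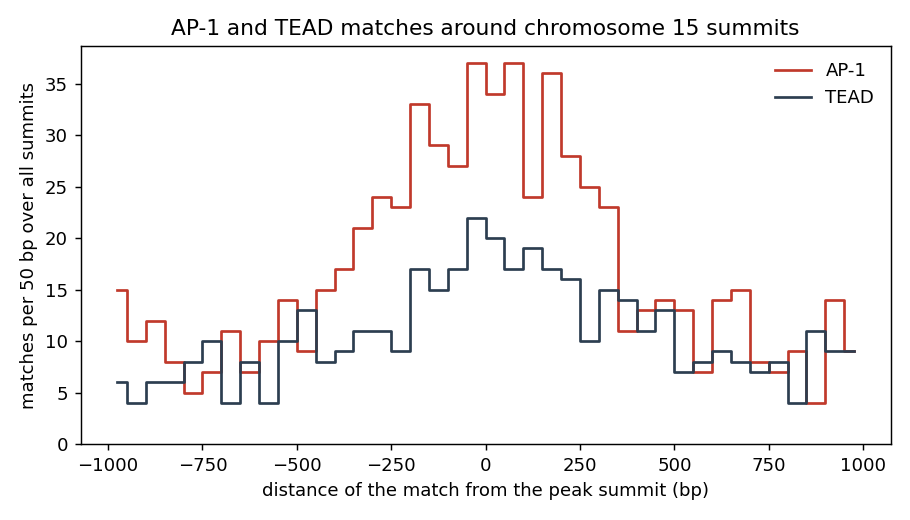
Number of AP-1 (red) and TEAD (dark) matches in bins of 50 bp by distance from the 863 summits of chromosome 15. AP-1 matches reach 37 in a bin beside the summit and stay at or under 15 beyond 400 bp on either side.

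The motif shares lay within the range of the other autosomes. The AP-1 share of 14.0% ranked eleventh of the 19 autosomes, which otherwise ran from 12.03% to 17.9%, and the TEAD share ranked eighth. Within chromosome 15, AP-1 words lay at 15.4% (12.8 to 18.3) of summits of peaks outside promoters and at 9.38% (6.01 to 14.3) of promoter peaks. Of the 33 summits at or under an IDR of 0.05, 8 held one (24.2%, 12.8 to 41.0), as did 37 of the 353 with the lowest score (10.5%, 7.70 to 14.1). A TEAD word was at 3 of the 33 and at 31 of the 353 (8.78%). A match describes the sequence and does not show that the factor was bound.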

How the data were processed

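The authors filtered and trimmed reads, aligned them to mm10 with BWA at a mapping quality of at least 13, called peaks with MACS2 at p under 0.001 against the matching input, and matched both replicates by IDR; versions are not given in the sources used here. The deposited list gave a score per peak, scaled so that an IDR of 0.05 is 540 and one of 0.01 is 830, and −log10 p-values for each replicate and the match. Signal and q-value columns were placeholders. All 863 peaks of chromosome 15 joined the annotation. No Input value was in these files except the local background means read back from the deposited −log10 p-values, which carry 6 digits. A p-value was placed within 0.000007, or 0.00006 from 10 upward. That reading and the motif count were tested on simulated data.

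Coordinates are 1-based. Sequence was taken from RefSeq GRCm38, and GENCODE M21 (basic) gave the gene models. Genes counted as having a peak when the authors' annotation gave their symbol or identifier. Read totals of the libraries were not used here, and the fragments at a summit, with medians of 15 and 14, limit precision. The 95% intervals of shares follow Wilson, with counting error alone, and peaks are not replicates. Named genes were the listed genes with a peak (in full at 5 or more peaks or an IDR of at most 0.05), the 10 with most peaks, those of the 10 highest peaks and of peaks at an IDR of at most 0.01, and genes of the 3 fullest 1 Mb windows and 3 longest stretches without a peak; a few listed genes beside these were named after their values were seen. The members and lists were chosen with earlier results of these data known. Alternatives covered IDR limits, merged peaks, promoter width, motif windows, gene distance and each replicate alone. The software was matplotlib 3.10.9, SciPy 1.17.1, pandas 2.3.3, NumPy 2.4.6 and Python 3.11.15.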

Additional observations from a re-analysis of the deposited data

How the results depend on the processing

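The density relative to the other autosomes was 1.82 per protein-coding gene, 1.90 for peaks with an IDR of at most 0.05 and 1.962 at 0.01, the last from 10 peaks; chromosome 15 then ranked second, first and second. With peaks of −log10 p of at least 5 in 1 replicate alone it was 1.49 to 1.54. The ratio of TTTCAT or TTTCCT at summits to flanks was 1.199 within 50 bp (exact McNemar test, adjusted p = 0.0547), 1.01 with flanks 3000 bp away and 1.29 for peaks with an IDR of at most 0.05, all without a call, and 1.02 to 1.21 with the summits of 1 replicate alone, where the second-listed replicate gave no call; the cause was not tested. AP-1 and TEAD kept their direction and call in every alternative that gave a ratio. For the 33 peaks with an IDR of at most 0.05 no ratio could be formed, with AP-1 at 8 summits and 0 flanks (exact McNemar test, adjusted p = 0.0313) and TEAD at 3 and 0 (adjusted p = 0.5). Among those 33 peaks 24.2% were intergenic and 27.3% at promoters. Promoters of 1 kb gave 14.7% promoter and 46.9% intronic peaks, and the summit alone gave 1.39% exonic, by construction. Protein-coding genes with a peak were 17.6% within 10 kb of the TSS and 3.06% at an IDR of at most 0.05, and 1.16% of peaks had an IDR of at most 0.01, since fewer peaks enter. No paired analysis was possible because the list gives its replicates by order, not by the numbers of the sample labels, and each p-value already sets a precipitate against its input. With 9 to 35 fragments at a summit and 2 replicates, weak peaks cannot be ranked finely.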

Other observations

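The keratin and Ly6 gene clusters of chromosome 15 were picked after the peak list was seen, so their counts are given with no test. Of 26 keratin genes 2 (7.69%) had an assigned peak, with 3 peaks in all, and Krt5, Krt8 and Krt18 were among those without. Of 17 genes of the Ly6 family and its neighbours 2 (11.8%) had a peak, with 1 each. These clusters lie in the gene-rich stretch after 70 Mb, where 15.9% of protein-coding genes had a peak, and nothing particular to the clusters is read from these shares.

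On the X chromosome, with 93 peaks, 80.6% and 87.1% were called on the genome-wide background, above the shares of all 19 autosomes and at the other end of the range from chromosome 15.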
